A study of Homo sapiens with 6 samples.

Results

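The genes described here are 8 transcription factors of intestinal and endodermal identity, CDX1, CDX2, GATA6, KLF4, KLF5, SOX9, FOXA1 and FOXA2. They were chosen by their known function, with no rule on measured values but with earlier results of these data known. The choice was made from 18417 genes with a probe set annotated to exactly 1 gene symbol. Each of the 8 has 1 such probe set, so all 8 members were measured and none was lost to a filter on low values. Expression was measured on whole-transcript Affymetrix arrays in 3 arrays of a mutant line derived from HCT116 and in 3 arrays of parental HCT116, a cell line established from a human colorectal carcinoma. Both lines were grown in the same supplemented McCoy's 5A medium. The mutant is labelled as having altered DNA methylation, the mutated gene is not named in the labels, and the parental arrays carry no alteration named there. The labels do not say whether the mutant line is 1 clone or whether the arrays came from separate cultures, so effects of the mutation and other differences between the lines cannot be told apart, and p-values reflect the spread between these arrays alone, which may be technical. The study set the lines side by side to see what the mutation does to expression, and here that comparison is read on the factors that set gut identity.

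Gut identity is laid down in the endoderm by FOXA and GATA factors. FOXA proteins open closed chromatin, and GATA factors bind beside them. CDX1 and CDX2 then impose and keep intestinal fate, while SOX9 marks the dividing crypt base and the KLF pair divides the crypt axis, with KLF5 mainly in dividing cells and KLF4 mainly in cells that leave the cycle. In colorectal carcinoma CDX2 and KLF4 are often reduced and SOX9 is often abundant.

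In the mutant line, KLF4 and KLF5 rose and SOX9 fell. The KLF5 call, however, was lost in 11 of 18 alternative settings, including the omission of any single array. This left 2 of 8 members called, except without limma's moderation, where GATA6 passed and 3 were called. CDX1, CDX2, GATA6, FOXA1 and FOXA2 did not pass the test. KLF4 was 1.66-fold higher, KLF5 was 1.17-fold higher, and SOX9 was at 0.506 of its parental level. Thus 3 of 8 members were called at an adjusted p under 0.05 in limma's moderated test, 2 higher and 1 lower. Over all genes, 25.9% were called, 14.6% higher and 11.3% lower in the mutant, and over all probe sets 18.5% were called. With 8 genes, 3 calls are near that background, and the count says nothing particular about gut factors. In bulk RNA, fewer cells expressing a gene and less RNA per cell cannot be told apart.

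The values are on the log2 scale after robust multi-array average (RMA) processing, which corrects the background, makes the arrays' distributions alike and summarises the probes of a probe set. A difference of 1 is therefore a doubling. Array medians lay between 6.88 and 6.93. Probe sets bind with different strength, so levels are compared between lines for each gene and not between genes. The mean over the 6 arrays was at least 7 for 7 members, and FOXA2 lay just below. CDX1 lay only just above 7. Both are close to the range where RMA compresses differences, so their small differences say less than those of brighter members.

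The intestinal homeobox factors differed by less than the spread between arrays. CDX2 (probe set 7970727, chromosome 13), the master regulator of intestinal fate, measured 8.51, 8.51 and 8.41 in the mutant arrays, against 8.56, 8.48 and 8.51 in the parental arrays. The groups overlapped. The difference was -0.04 with a 95% interval of -0.17 to 0.09 (limma, n = 3 each, adjusted p = 0.700), so the unadjusted interval leaves out changes of more than about 0.17 in either direction. With 1 array left out the CDX2 difference was -0.059 to -0.0072, the smallest without mutant replicate 3. CDX1 (probe set 8109226, chromosome 5), which acts with CDX2 in the colon, measured 7.14, 7.03 and 7.13 in mutant arrays, against 7.24, 7.04 and 7.08 in parental arrays. These also overlapped, and the difference was -0.02 (interval -0.19 to 0.15; limma adjusted p = 0.892).

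The FOXA factors and GATA6 gave small differences that did not pass. FOXA1 (probe set 7978706, chromosome 14) measured 8.01, 8.01 and 7.93 in the mutant, against 7.96, 7.87 and 7.80 in the parental line. The lowest mutant array lay below the highest parental array, and the difference of 0.11 had an interval of -0.04 to 0.25 (limma adjusted p = 0.320). With 1 array left out it was 0.067 to 0.15, the lowest without parental replicate 3. FOXA2 (probe set 8065344, chromosome 20) measured 6.86, 6.83 and 6.91 in the mutant, against 7.18, 6.86 and 6.83 in the parental line. Parental array 1 stood above the other 5, and the difference was -0.09 (interval -0.33 to 0.16; limma adjusted p = 0.643). Without that array it was 0.02. GATA6 (probe set 8020455, chromosome 18), a zinc finger factor of gut progenitors, measured 9.51, 9.56 and 9.56 in the mutant, against 9.44, 9.46 and 9.42 in the parental line. Every mutant array was above every parental array, by little. The difference was 0.10 (interval -0.0096 to 0.21; limma adjusted p = 0.206).

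KLF4 (probe set 8163002, chromosome 9), a zinc finger factor of differentiated epithelial cells and one of the reprogramming factors, measured 8.78, 8.89 and 8.71 in the mutant, against 8.04, 7.97 and 8.18 in the parental line. The groups were well apart. The means were 8.79 ± 0.09 in the mutant and 8.06 ± 0.11 in the parental line (SD, n = 3 each), and the difference of 0.73 ± 0.08 (SE) passed with adjusted p = 0.00183 (limma). It passed under every one of the 18 alternative settings, with values of 0.68 to 0.79.

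KLF5 (probe set 7969414, chromosome 13), a close relative that promotes proliferation of crypt cells, measured 10.42, 10.35 and 10.50 in the mutant, against 10.14, 10.22 and 10.23 in the parental line. The groups did not overlap, but the gap between the lowest mutant and the highest parental array was small. The difference was 0.23 ± 0.06 (SE), just inside the threshold (limma adjusted p = 0.0476). The call was lost in 11 of 18 alternatives, including the omission of any single array, where limma's adjusted p was 0.0661 to 0.126.

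SOX9 (probe set 8009517, chromosome 17), an HMG-box factor of crypt progenitors and a target of WNT signalling, measured 9.56, 9.72 and 9.71 in the mutant, against 10.67, 10.61 and 10.66 in the parental line. All mutant arrays lay far below all parental arrays. The means were 9.66 ± 0.09 in the mutant and 10.65 ± 0.03 in the parental line (SD, n = 3 each), and SOX9 fell by 0.98 ± 0.06 (SE; limma adjusted p = 0.000269). It passed in all 18 alternatives, with values of -1.01 to -0.93. In total the mutant and parental arrays did not overlap for 4 members, the 3 called genes and GATA6, beside 45.8% of all genes.

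**Figure D1:**
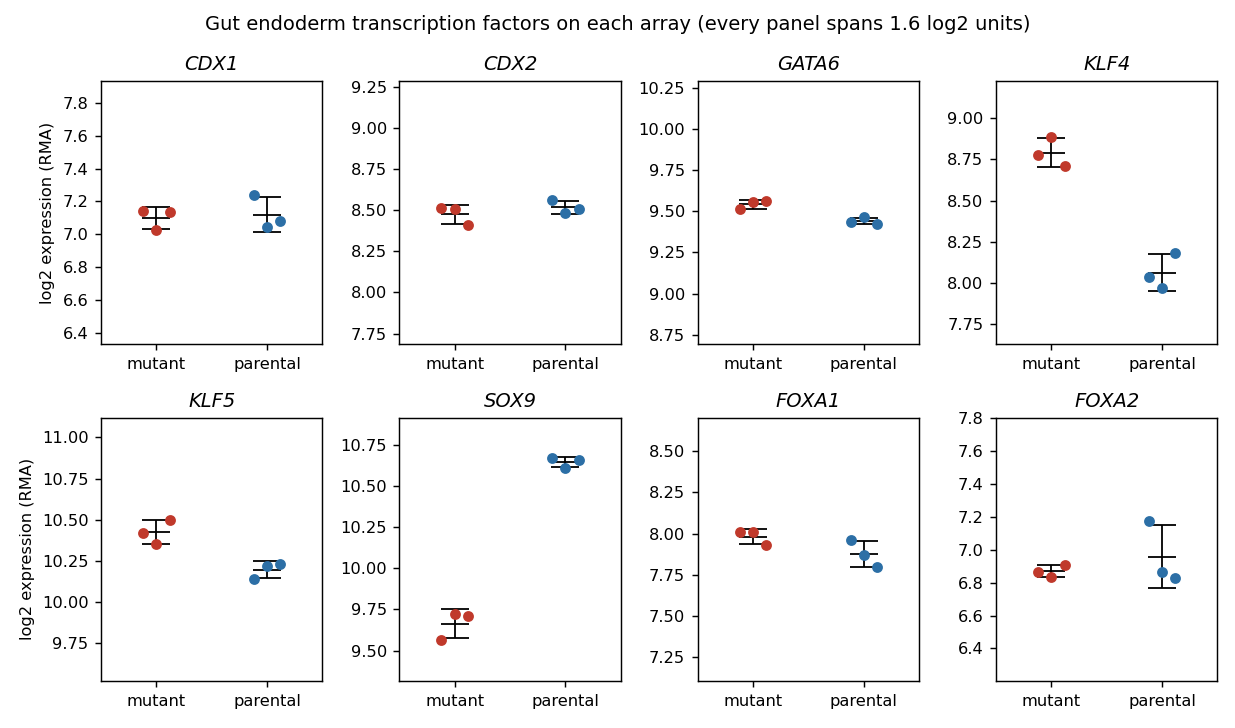
Log2 expression (RMA) of the 8 members, with 1 point for each of the 3 mutant (left) and 3 parental (right) arrays; bars mark the mean and SD and every panel has the same span. KLF4 is separated upward (mutant mean 8.79, parental mean 8.06) and SOX9 downward (mutant mean 9.66, parental mean 10.65), while the points of CDX1, CDX2, FOXA1 and FOXA2 overlap.

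The 3 pairs of paralogs were compared within arrays, as the value of 1 gene minus that of the other. With 3 against 3 arrays the two-sided exact permutation test cannot go below 0.1, so none of the pairs could pass. The mutant minus parental difference of KLF4 exceeded that of KLF5 by 0.50, and the arrays of the lines did not overlap in this measure (exact p = 0.1, 0.15 after Benjamini-Hochberg adjustment over the 3 pairs). For FOXA1 over FOXA2 the excess was 0.19, also without overlap (exact p = 0.1, adjusted 0.15). The FOXA excess was 0.13 without parental replicate 1, and after a second quantile normalization it was 0.17 and the exact permutation p was 0.2. With 1 array left out the KLF excess was 0.42 to 0.58. For CDX1 over CDX2 it was 0.02 with overlapping arrays (exact p = 0.8, adjusted 0.8).

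Sequence upstream of the start sites is shown for KLF4 and KLF5, the pair that rose, and for CDX2, which did not pass, since the mutant line is labelled for altered DNA methylation and since KLF proteins bind GC-rich boxes. The windows are the 250 bases before the annotated start (RefSeq, GRCh38.p14), read 5′ to 3′ on the gene's strand, and 5 of the 8 members had a window in the table used. Capitals mark CACCC or GGGCGG on either strand, and no 2 marks overlap. Over 35116 such windows, 54.7% hold CACCC and 42.6% hold GGGCGG, and the median number of CpG dinucleotides is 11.
KLF4, chr9:107489770-107490019, minus strand: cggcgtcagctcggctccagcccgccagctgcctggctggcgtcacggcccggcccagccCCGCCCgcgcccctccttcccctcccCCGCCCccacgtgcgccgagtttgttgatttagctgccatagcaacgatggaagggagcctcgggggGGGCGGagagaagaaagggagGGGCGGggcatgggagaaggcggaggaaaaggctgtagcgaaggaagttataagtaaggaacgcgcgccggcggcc
KLF5 start 1, chr13:73054726-73054975, plus strand: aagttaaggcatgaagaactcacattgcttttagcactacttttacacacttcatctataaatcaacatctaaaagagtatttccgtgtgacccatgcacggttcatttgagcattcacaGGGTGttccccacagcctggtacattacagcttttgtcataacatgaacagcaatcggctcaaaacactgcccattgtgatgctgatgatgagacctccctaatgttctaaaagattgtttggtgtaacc
KLF5 start 2, chr13:73058755-73059004, plus strand: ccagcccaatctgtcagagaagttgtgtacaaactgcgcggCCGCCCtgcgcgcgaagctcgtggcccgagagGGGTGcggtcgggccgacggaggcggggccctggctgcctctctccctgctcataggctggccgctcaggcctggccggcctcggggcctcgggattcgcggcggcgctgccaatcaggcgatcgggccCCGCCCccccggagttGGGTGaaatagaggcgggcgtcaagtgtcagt
CDX2, chr13:27969316-27969565, minus strand: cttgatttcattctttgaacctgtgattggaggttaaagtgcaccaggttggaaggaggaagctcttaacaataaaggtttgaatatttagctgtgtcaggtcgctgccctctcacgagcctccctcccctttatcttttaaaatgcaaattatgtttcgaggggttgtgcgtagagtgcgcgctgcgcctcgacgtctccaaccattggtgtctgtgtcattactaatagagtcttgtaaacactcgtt

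The KLF4 window held 25 CpG and 4 GGGCGG matches, and 21.6% of all windows hold at least as many CpG. The KLF5 starts were unlike each other. The first held 3 CpG and 1 CACCC match, and the second held 27 CpG with 2 matches of each motif. The array has 1 probe set for KLF5 and does not tell these starts apart. The CDX2 window held 10 CpG and neither motif. Among the members that did not pass, GATA6 had 16 CpG with 2 CACCC matches and FOXA1 had 26 CpG with 2 GGGCGG matches. The part of CpG number in any of the differences was not tested. Methylation of these windows was not analysed here.

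The genes around a member can move with it, so each member was set beside the 10 nearest measured genes on either side in RefSeq gene order with a mean of at least 7. Over all genes, 25.9% were called, 14.6% higher and 11.3% lower. Genes with a mean below 7, which could not be neighbours, were 7209 of 18417 genes but held 686 of the 4773 calls. The share among brighter genes is therefore above 25.9%. The neighbours of KLF4 and SOX9 were shifted in the same direction as the member. Around KLF4 the median difference of the 20 neighbours was 0.33, with 0.31, 0.34 and 0.35 for the 3 mutant arrays, and 14 were called higher and 1 lower. KLF4 stood 0.40 above that median, with 5 neighbours above it and 15 below. The median around KLF4 was 0.41 with 5 genes on either side, 0.26 with 25, and 0.23 with neighbours of a mean of at least 5. With 1 array left out it was 0.29 to 0.36. The flanking genes were RAD23B (0.24, limma adjusted p = 0.0190) and ACTL7B (-0.21, adjusted p = 0.118). Around SOX9 the median was -0.30, and 12 of 20 neighbours were called lower with the other 8 not passing. SOX9 stood 0.69 below that median. Of its neighbours, 2 had a larger decrease, WIPI1 at -1.49 and CDC42EP4 at -1.02, both lower with limma adjusted p-values of 0.000145 and 0.000762 and both named after their values were seen. With 5 genes on either side the median around SOX9 was -0.59. The part of the neighbourhood in either result was not tested.

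The regions of the other members were less even. Their counts of called neighbours also stand beside a share above 25.9% among genes of this brightness. Around KLF5 the neighbours split, with 5 called higher, 6 called lower and a median of 0.0011, which was 0.24 with 5 genes on either side and -0.21 with 25. The genes next to KLF5 were PIBF1 (0.48, limma adjusted p = 0.00457) and its relative KLF12 (0.26, adjusted p = 0.0650). Around GATA6, 8 neighbours were called lower and 2 higher, with differences of -1.58 to 0.36 and a median of -0.08, and GATA6 itself stood 0.18 above it. With 25 genes on either side the median around GATA6 was -0.25. Around CDX2, on the same chromosome as KLF5, 7 neighbours were called lower and 1 higher, and the median was -0.03, which was -0.052 without parental replicate 1 and -0.00023 without parental replicate 3. The medians were -0.06 around CDX1, 0.12 around FOXA1 and 0.07 around FOXA2. Around FOXA1, 7 neighbours were called higher and 2 lower, against 3 and 2 around CDX1 and 2 and 0 around FOXA2. The difference of every member, KLF4 and SOX9 included, lay within the range of its neighbours. The medians around CDX1 and FOXA2 did not hold their sign in every alternative, while that around FOXA1 stayed positive, at 0.043 to 0.16. With neighbours of a mean of at least 5 the medians were 0.087 around CDX1, 0.043 around FOXA1 and -0.042 around FOXA2. The CDX1 median was -0.0029 with 25 genes on either side, and the FOXA2 median was 0.021 with 5 genes on either side and 0.025 without mutant replicate 3, 0.034 without parental replicate 1 and 0.041 without parental replicate 3.

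**Figure D2:**
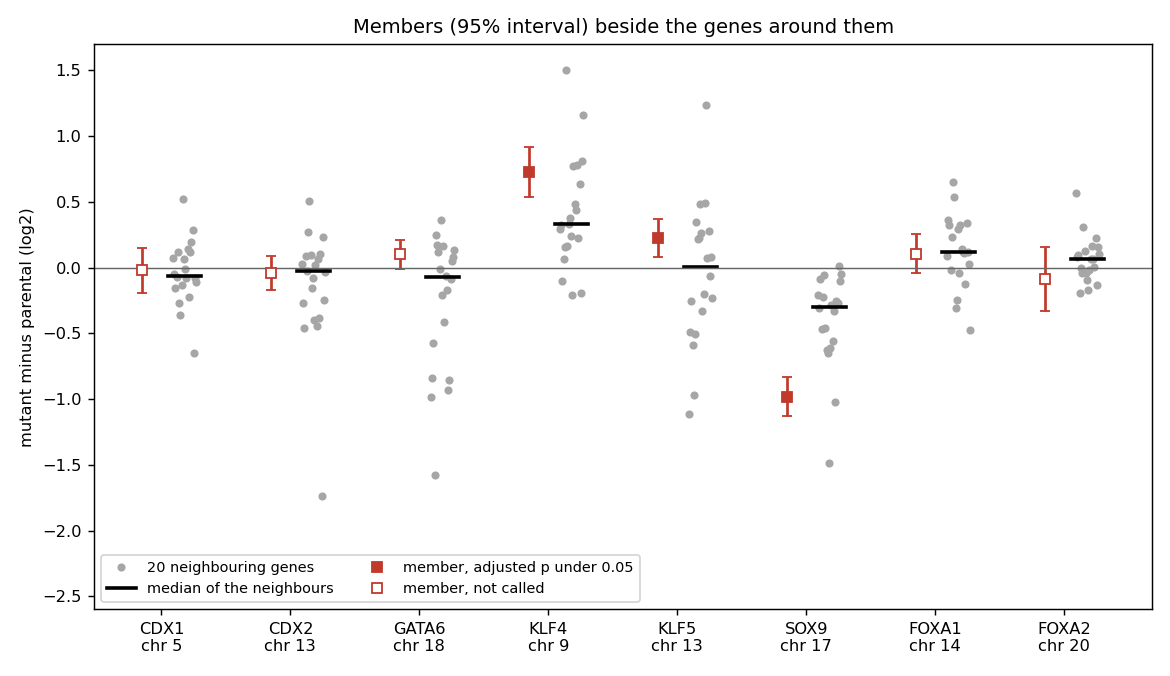
Mutant minus parental log2 difference of each member with its 95% interval (squares, filled where called) beside its 20 neighbouring genes (grey points) and their median (black bar). The neighbours of KLF4 are mostly above 0 (median 0.33) and those of SOX9 mostly below 0 (median -0.30), and both members lie beyond the median of their neighbours.

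Relatives of the members show how far the changes reached in their families. Among 23 measured KLF and SP factors other than the members, 2 rose, 8 fell and 13 did not pass. This is a share of 43.5% beside 25.9% over all genes, with a median of -0.06 beside 0.0034. The shares are not matched for brightness. A mean below 7 was found for 3 of the 23, but for 7209 of all 18417 genes, of which 686 were called. KLF7, a factor of neurons and fat tissue, fell by 1.18, with 8.50, 8.22 and 8.39 in the mutant, against 9.60, 9.45 and 9.59 in the parental line (limma adjusted p = 0.000491). SP2, a ubiquitous zinc finger factor, fell by 0.44 (limma adjusted p = 0.00242) and KLF3, a repressor that competes for CACCC boxes, fell by 0.43 (adjusted p = 0.00388). KLF6 (0.28, limma adjusted p = 0.0492) and KLF13 (0.21, adjusted p = 0.0475) rose only just inside the threshold. A second, dimmer probe set of KLF13 gave -0.06 (limma adjusted p = 0.805). Without 1 array in turn, 4 to 6 of the 23 were called.

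Among 18 SOX factors other than SOX9, 2 rose and 16 did not pass, a share of 11.1% beside 25.9% of all genes. SOX30, a factor known from the germline, rose by 0.90 (limma adjusted p = 0.00125), with 7.41, 7.28 and 7.12 in the mutant, against 6.40, 6.28 and 6.42 in the parental line. SOX4, which is abundant in progenitor cells, rose by 0.37 (limma adjusted p = 0.0189). SOX2, a factor of foregut and stem cells, measured 5.56, 5.91 and 5.93 in the mutant, against 6.08, 5.99 and 6.09 in the parental line, and its difference of -0.25 did not pass (limma adjusted p = 0.183). In 10 of the 18 the mean over arrays was below 7, where RMA compresses differences. With 1 array left out, 1 or 2 of the SOX relatives were called.

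**Figure D3:**
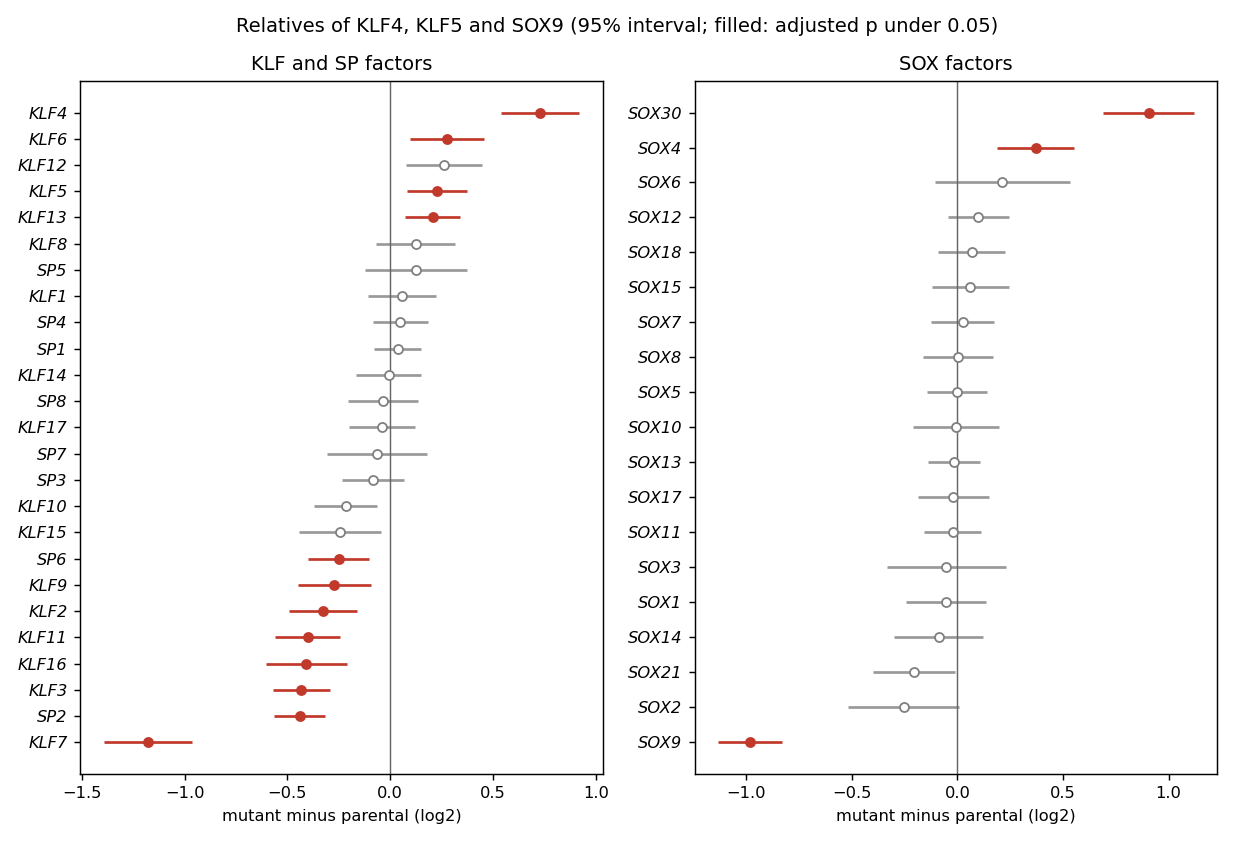
Mutant minus parental log2 difference with 95% interval for KLF and SP factors (left) and SOX factors (right), members included; filled points are called. KLF4 (0.73) is the top KLF factor and KLF7 (-1.18) the lowest, and SOX9 (-0.98) is the lowest SOX factor, opposite to SOX30 (0.90) and SOX4 (0.37).

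Of 33 other measured factors of endoderm and gut, 2 rose, 6 fell and 25 did not pass. This is 24.2%, close to the 25.9% of all genes, and the median was -0.05. The largest decrease was that of EHF, an ETS factor of epithelia, with 5.48, 5.79 and 4.95 in the mutant, against 11.06, 10.99 and 11.01 in the parental line, a difference of -5.61 (limma adjusted p = 4.22e-05). The mutant values lie below the array medians, where RMA compresses differences, so the size is not exact. TCF7L2, the nuclear partner of beta-catenin in the crypt, fell by 0.92, with 10.40, 10.43 and 10.43 in the mutant, against 11.31, 11.36 and 11.35 in the parental line (limma adjusted p = 0.00012). PPARG, a nuclear receptor of differentiated colonocytes, fell by 0.86 (limma adjusted p = 0.000372). ELF3, PRDM1 and ONECUT2, which the naming rule did not pick and which were chosen with their values in view, changed by -0.84, -0.73 and -0.47, the first an ETS factor that promotes villus differentiation. HES1, the Notch effector that favours absorptive cells, rose by 0.59 (limma adjusted p = 0.00155), and NR5A2, a nuclear receptor of crypt and pancreas, rose by 0.55 (adjusted p = 0.00167).

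Paralogs of the GATA and FOXA members did not pass. GATA4, which acts in the proximal gut, gave -0.00073 (limma adjusted p = 0.997), GATA5 -0.0039 (adjusted p = 0.988) and FOXA3 -0.10 (adjusted p = 0.348). Their values were 6.60 to 6.85 for GATA4 over the 6 arrays, below the array medians, 7.83 to 8.12 for GATA5, and 7.39 to 7.59 for FOXA3.

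Genes known to be controlled by KLF4 or KLF5 went both ways. Of 19 measured, 6 rose, 4 fell and 9 did not pass, which is 52.6% beside 25.9% of all genes, and the median was 0.04. These shares are not matched for brightness. A mean below 7 was found for 4 of the 19, but for 7209 of all 18417 genes, of which 686 were called. PDGFA, a growth factor chain, rose by 0.99, with 9.69, 9.84 and 9.89 in the mutant, against 8.90, 8.74 and 8.80 in the parental line (limma adjusted p = 0.000468). The G1 cyclins CCND1 and CCNE1 rose by 0.28 (limma adjusted p = 0.0122) and 0.27 (adjusted p = 0.0367). CDKN1A, a cell cycle inhibitor, rose by 0.23 (limma adjusted p = 0.0408), while CDKN1B, an inhibitor of the same family, fell by 0.29 (adjusted p = 0.00915), both named after their values were seen. KRT19, a keratin of simple epithelium, fell by 0.47 (limma adjusted p = 0.00208), EGFR by 0.44 (adjusted p = 0.00193) and BIRC5, an inhibitor of apoptosis, by 0.36 (adjusted p = 0.00770). With 1 array left out, 5 to 7 of these 19 were called.

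Of 18 measured genes known to be controlled by GATA6 or SOX9, 2 rose, 1 fell and 15 did not pass, a share of 16.7% beside 25.9% of all genes, with a median of -0.04. The 15 include the member CDX2. The mean was below 7 for 11 of the 18. BMP4, a secreted ligand that restrains stem cells, rose by 1.32, with 12.91, 12.78 and 12.86 in the mutant, against 11.49, 11.53 and 11.57 in the parental line (limma adjusted p = 7.55e-05). CEACAM1, an adhesion molecule of differentiated colonocytes reported as a SOX9 target, rose by 0.74 (limma adjusted p = 0.00203). DAB2, an endocytic adaptor that GATA6 activates in endoderm, fell by 0.97, with 7.68, 7.61 and 7.69 in the mutant, against 8.57, 8.64 and 8.68 in the parental line (limma adjusted p = 0.000176). The cartilage genes through which SOX9 is best known did not pass, with -0.11 for COL2A1 (adjusted p = 0.244) and -0.11 for ACAN (adjusted p = 0.726).

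Genes of intestinal differentiation that CDX factors activate were dim in both lines. Of 23 measured, 20 had a mean below 7, 22 did not pass and 1 fell, a share of 4.35% beside 25.9% of all genes, with a median of -0.04. Of all 7209 genes with a mean below 7, 686 were called. The gene that fell was DSC2, which encodes a desmosomal cadherin, with 9.48, 9.46 and 9.52 in the mutant, against 10.25, 10.27 and 10.21 in the parental line, a difference of -0.76 (limma adjusted p = 0.000253). It lies on chromosome 18, as GATA6 does. VIL1, MUC2 and CDH17, which mark enterocytes, goblet cells and intestinal epithelium, gave 0.0066, -0.04 and -0.03, with limma adjusted p-values of 0.967, 0.787 and 0.919. Among 17 measured FOXA targets of foregut and liver, 14 had a mean below 7, 16 did not pass and 1 fell. This share is 5.88% beside the same 25.9%. The FOXA target that fell was SERPINA1, a protease inhibitor, at -0.78 (limma adjusted p = 0.000538). It measured 6.11, 6.10 and 6.12 in the mutant, against 6.94, 6.79 and 6.95 in the parental line.

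**Figure D4:**
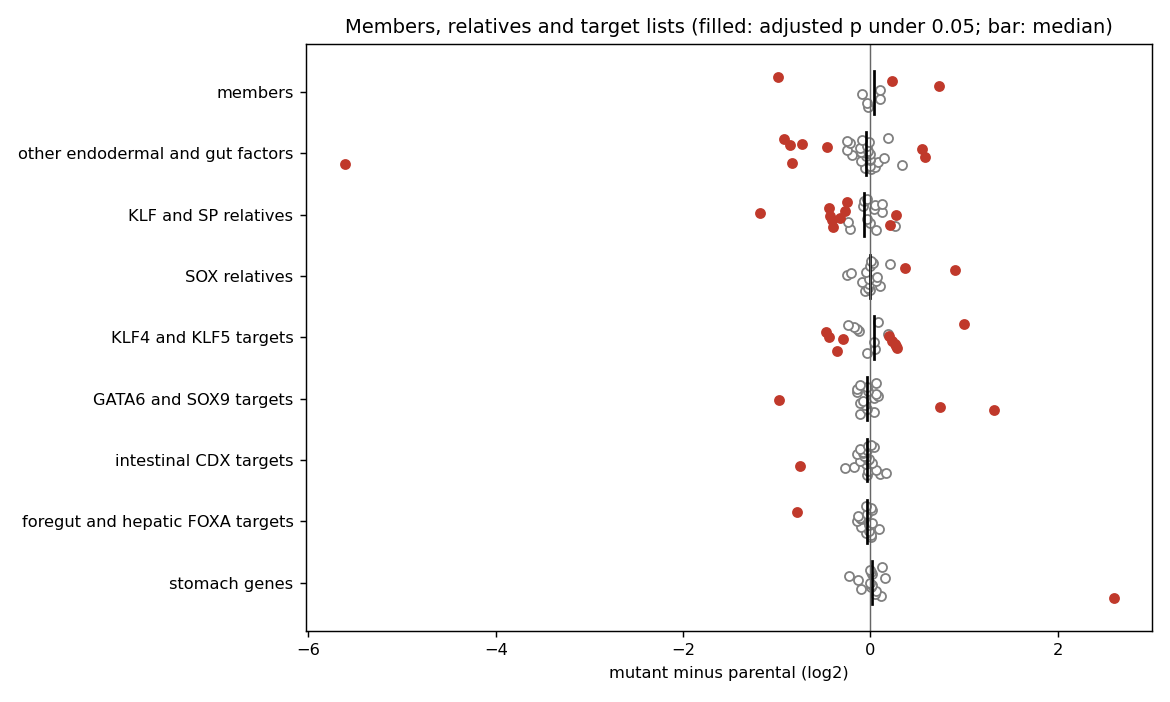
Mutant minus parental log2 difference of each measured gene in the members and in the 8 lists of relatives, other gut factors, targets and stomach genes; filled points are called and the black bar is the list's median. List medians lie near 0, between -0.06 and 0.04, while single genes such as EHF (-5.61), BMP4 (1.32) and ANXA10 (2.60) stand far from the rest.

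The line's epithelial identity was checked with 12 colon epithelium markers. The members CDX1 and CDX2 are among these 12, so the averages and the share below partly reuse the genes under study. EPCAM, CDH1, KRT8, KRT18, KRT19, CDX1 and CDX2 each lay above the array medians in all 6 arrays. VIL1, KRT20, CDH17 and GPA33 each lay below them in all 6, but brightness also depends on the probes, so this is no comparison between markers and does not show that they are absent. Averaged over the 12 markers, mutant arrays lay at 8.41 to 8.54 and parental arrays at 8.74 to 8.77. The 4 markers that fell were CDH1 (-1.36), KRT8 (-0.53), KRT18 (-0.88) and KRT19 (-0.47). They make 33.3% of the list, beside 25.9% called over all genes. Keratin genes have close copies that can share probes. Averages over 6 fibroblast markers were 5.67 to 5.74 in the mutant and 5.69 to 5.75 in the parental line. Of these markers 1 rose (16.7% beside the same 25.9%), PDGFRB at 0.27. Averages over 5 leukocyte markers were 6.06 to 6.09 in the mutant and 5.98 to 6.04 in the parental line. Endothelial markers (6 measured) averaged 5.80 to 5.82 in the mutant and 5.77 to 5.90 in the parental line, and squamous markers (5 measured) averaged 6.34 to 6.42 in the mutant and 6.30 to 6.40 in the parental line. The part of the epithelial markers in the changes of KLF4, KLF5 and SOX9 was not tested.

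The genes most like each member in pattern were taken as the 2 nearest in Euclidean distance over the 6 arrays, each gene centred on its own mean. Only genes with a mean of at least 7 were candidates, 11208 for FOXA2 and 11207 for each of the other members. For SOX9 they were CYP24A1, the vitamin D hydroxylase (distance 0.060, difference -0.96), and MCAM, an adhesion molecule (distance 0.065, difference -1.01). For KLF4 they were ZNF33B (distance 0.11, difference 0.78) and DPCD (distance 0.12, difference 0.65). KLF5 was nearest to SNAP29 and SUPT7L, at distances of 0.023 and 0.033. The 10 neighbours in pattern of the other 5 members had distances of 0.025 to 0.085.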

How the data were processed

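Total RNA (100 ng) of 3 mutant and 3 parental HCT116 arrays was labelled with biotin, per the labels. The deposited values are log2 expression, 1 per probe set and array, which the authors made using RMA and Partek, as the submitters' processing notes record; the sources used here do not give versions or a genome build. They were used as deposited. Of 33297 probe sets, 19460 have 1 gene symbol, 1754 several and 12083 are not named in the annotation used. Symbols were updated by gene ID, found in RefSeq (GRCh38.p14) for 19429. A gene with several probe sets was represented by the brightest.

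Mutant minus parental differences were tested with limma 3.58.1 (lmFit, eBayes, two-sided, no covariates) in R 4.3.3 with Benjamini-Hochberg adjustment across the whole table and a threshold of 0.05. Residual degrees of freedom were 4, with 2.16 prior. Further steps used Python 3.11.15 with scipy 1.17.1, pandas 2.3.3, matplotlib 3.10.9 and numpy 2.4.6. In a simulation of all 33297 probe sets with normal noise of limma's moderated spread, 67, 67 and 66 were changed 1.5-fold, 2-fold and 4-fold. Of these, 64.2%, 89.6% and 98.5% were recovered, with 12 false calls. Far fewer probe sets were changed there than the 6166 called in the data. The adjustment was therefore stricter, and these rates are not those of the data. Precision is limited by the number of arrays. The members, the 8 lists, the tests and the alternatives were chosen with earlier results of these data known. Named were the members, up to 3 called genes of the largest change per list and direction, 9 relatives wherever measured, and the 2 genes most like each member. Some listed genes that did not pass were picked outside this rule, namely VIL1, MUC2, CDH17, COL2A1, ACAN, TFF1, TFF2, CLDN18 and PDX1. Larger shifts that did not pass were found among CDX targets (CEACAM6, -0.27) and stomach genes (MUC6, -0.23). Listed genes without a single-symbol probe set were not analysed here. Neighbours come from RefSeq gene order and promoter sequence from RefSeq. Alternatives covered scaling, filters, the prior, array weights, a replicate block, omission of each array, a required fold of 1.2, the probe sets tested and the probe set rule.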

Additional observations from a re-analysis of the deposited data

How the results depend on the processing

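Calls of KLF4, SOX9, CDX2 and FOXA1 stayed on their side of the threshold, in their direction, in every alternative run. The KLF5 difference kept its sign but lost its call with arrays centred on their medians (0.22, limma adjusted p = 0.0585), array weights (0.20, 0.0519), no moderation (0.23, 0.0647), a fold of 1.2 in the test (0.23, 1) and the replicate block (0.23, 0.0929), and was 0.19 to 0.26 with each array left out. GATA6 gained a call without moderation (0.10, 0.0433). Leaving out arrays gave -0.060 to 0.038 for CDX1, -0.15 to 0.022 for FOXA2 and -0.031 to 0.071 for CDX1 against CDX2. Signs turned at 0.016 and 0.038 for CDX1 without mutant replicate 2 and parental replicate 1, at 0.022 for FOXA2 without parental replicate 1, and at -0.031 and -0.0020 for the CDX pair without mutant replicate 3 and parental replicate 2. Of 33297 probe sets, 6166 were called, 4037 to 4644 with an array left out, and 1743 with the fold of 1.2. That stricter test called 1 KLF or SP relative, 1 SOX relative and 1 KLF target. Without moderation 6 KLF or SP relatives and 1 SOX relative were called. With the replicate block 5 KLF or SP relatives and 6 KLF targets were called. Leaving out arrays gave 4 to 6, 1 to 2 and 5 to 7 for these 3 lists. Requiring a mean of at least 7 left 1 SOX relative called, with 0 FOXA targets (3 tested) and 0 stomach genes (1 tested), since SERPINA1 and ANXA10 fall below it. Testing single-symbol probe sets only called 2 CDX targets. The cause of the other changes was not tested. Replicate numbers gave no sign of pairing in the processed values: deviations from group means correlated at 0.043, -0.013 and 0.0027 between arrays of the same number. These values, taken after RMA, cannot show whether the arrays were made in pairs. RMA compresses dim genes, which limits the CDX, FOXA and stomach lists most.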

Other observations

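Genes of gastric epithelium were examined beside the intestinal ones. Of 15 measured, 14 had a mean below 7, 14 did not pass and 1 rose, with a median of 0.02. The share called was 6.67% beside 25.9% of all genes. The gene that rose was ANXA10, an annexin of gastric epithelium, with a difference of 2.60 (limma adjusted p = 0.000156). It measured 8.11, 8.02 and 7.91 in the mutant, against 5.47, 5.13 and 5.64 in the parental line. The parental values lie below the array medians, where RMA compresses differences, so the size is not exact. The trefoil peptides TFF1 and TFF2 gave 0.0074 (limma adjusted p = 0.964) and -0.0027 (adjusted p = 0.987), and CLDN18, a gastric tight junction protein, gave -0.10 (adjusted p = 0.461). PDX1, the duodenal and pancreatic factor that lies close to CDX2 on chromosome 13, measured 6.72 to 7.02 over the 6 arrays and gave -0.04 (limma adjusted p = 0.853).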
